A study of Mus musculus with 5 samples.

Results

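The genes that make microRNAs and carry out their silencing were followed through chromatin profiles of the histone variant H2A.Z and its chaperone ANP32E in mouse hearts. There were 10 members: the argonaute genes Ago1, Ago2, Ago3 and Ago4, the nuclease genes Drosha and Dicer1, their RNA-binding partner genes Dgcr8 and Tarbp2, the export receptor gene Xpo5 and the silencing scaffold gene Tnrc6a. The set was chosen on measured values, because Ago2 and Dicer1 had some of the highest ANP32E ratios between conditions; those ratios are therefore given as a description, and the question was what the remaining genes of the pathway showed. Every region that listed a member was taken. This gave 5 of the 8444 ANP32E regions and 13 of the 31098 H2A.Z regions, with 1 of the latter listed for both Ago3 and Ago1.

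A primary microRNA transcript is cropped in the nucleus by Drosha with its partner Dgcr8, and the hairpin is carried to the cytoplasm by exportin 5, the product of Xpo5. Dicer1, helped by Tarbp2, cuts the hairpin to a duplex, and one strand is loaded into an argonaute protein, which binds Tnrc6a to silence target messages. In mice, loss of Dicer1 or Dgcr8 from heart muscle cells leads to cardiomyopathy and heart failure.

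The hearts were whole hearts of male C57BL/6 mice aged 12 weeks, taken after a sham operation or 4 days into transaortic coarctation (TAC), in which the aorta is constricted so that the left ventricle pumps against a raised pressure. Each antibody (anti-H2A.Z or anti-ANP32e) had 1 sham and 1 TAC library, and a library of input DNA from pooled hearts made 5 in all. The labels do not say how many animals stand behind a library. With no replicates there was no test and no p-value, and every difference describes these libraries.

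Values are the deposited average signal and the deposited peak signal of a region, and the sources used here do not give how they were scaled for depth. A promoter was the region nearest to a gene's start, with its centre within 1000 bp of the start or overlapping it. TAC and sham were compared as log2((TAC + 1)/(sham + 1)) of the average signal, and higher or lower means at least 1.5-fold on that scale. ANP32E promoters as a whole had a median log2 ratio of -0.14 over 5496 genes, so ANP32E ratios are also given relative to that median; the H2A.Z median over 13763 genes was 0.035. In whole hearts, a different share of a cell type and a different signal per cell cannot be told apart. H2A.Z promoter regions were present for 6 of 10 cardiomyocyte marker genes (median log2 ratio -0.22), 5 of 5 endothelial (0.06), 3 of 6 fibroblast (0.05), 1 of 6 leukocyte (-0.19), 1 of 4 hepatocyte (-0.12) and 1 of 4 neuron genes (0.25). ANP32E promoter regions were present for 2 of the cardiomyocyte genes (median -0.28) and 3 of the endothelial genes (median -0.60, with 2 lower), and for none of the others. The part of cell composition in the results below was not tested.

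Of the 10 members, 3 had an ANP32E promoter region, namely Ago2, Dicer1 and Tnrc6a, and 9 had an H2A.Z promoter region. The 3 made up 33.3% of the members with an H2A.Z promoter; over all genes with an H2A.Z promoter, 39.6% also had one for ANP32E, so the members' share was near the background. Ago1, Ago3, Ago4, Drosha, Dgcr8 and Xpo5 had H2A.Z alone, and Tarbp2 had neither. A missing region means that no interval was called there in either condition, so no signal value is given for these promoters. The question whether the rest of the pathway follows Ago2 and Dicer1 can thus be put to 1 further promoter, that of Tnrc6a.

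The promoter windows of 4 members are shown because they stand for the 3 states of occupancy: Dicer1 and Tnrc6a with both proteins, Ago4 with H2A.Z alone and Tarbp2 with neither. Each window runs from 250 bases before to 50 after the RefSeq start on GRCm38.p6 (the assembly of mm10), and capitals mark CpG dinucleotides. The positions are chr12:104751903-104752202 (minus strand) for Dicer1, chr7:123123635-123123934 (plus) for Tnrc6a, chr4:126533409-126533708 (minus) for Ago4 and chr15:102517942-102518241 (plus) for Tarbp2.
Dicer1: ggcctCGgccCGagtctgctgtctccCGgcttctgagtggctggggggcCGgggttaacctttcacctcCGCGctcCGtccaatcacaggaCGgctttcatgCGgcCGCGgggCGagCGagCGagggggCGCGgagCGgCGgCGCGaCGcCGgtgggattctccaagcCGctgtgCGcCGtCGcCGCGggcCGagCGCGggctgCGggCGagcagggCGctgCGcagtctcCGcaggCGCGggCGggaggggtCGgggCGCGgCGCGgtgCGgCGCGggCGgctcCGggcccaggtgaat
Tnrc6a: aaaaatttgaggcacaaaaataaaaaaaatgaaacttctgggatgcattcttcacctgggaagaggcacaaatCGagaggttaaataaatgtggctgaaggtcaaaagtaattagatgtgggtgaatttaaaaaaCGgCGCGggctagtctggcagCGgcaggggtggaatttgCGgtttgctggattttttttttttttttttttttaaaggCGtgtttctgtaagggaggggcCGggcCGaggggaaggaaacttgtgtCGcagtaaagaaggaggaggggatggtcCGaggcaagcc
Ago4: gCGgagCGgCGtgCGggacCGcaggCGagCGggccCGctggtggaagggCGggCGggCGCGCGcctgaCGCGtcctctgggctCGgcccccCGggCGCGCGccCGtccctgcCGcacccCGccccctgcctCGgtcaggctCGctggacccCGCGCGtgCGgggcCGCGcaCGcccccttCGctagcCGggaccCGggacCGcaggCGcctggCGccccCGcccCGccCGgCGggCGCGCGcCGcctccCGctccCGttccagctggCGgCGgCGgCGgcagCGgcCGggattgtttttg
Tarbp2: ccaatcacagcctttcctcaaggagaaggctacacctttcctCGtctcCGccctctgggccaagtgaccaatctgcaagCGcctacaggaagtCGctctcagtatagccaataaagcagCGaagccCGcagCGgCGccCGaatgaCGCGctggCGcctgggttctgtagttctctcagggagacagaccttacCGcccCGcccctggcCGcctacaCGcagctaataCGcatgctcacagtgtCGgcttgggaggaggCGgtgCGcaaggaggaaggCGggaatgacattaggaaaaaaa

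The windows differed widely in composition. The Dicer1 window held 49 CpGs at 77.3% G and C, and Ago4 had the highest figures of the 9 members with a window, 54 CpGs and 83.3%. Tnrc6a, although covered over all 300 bases by both an ANP32E and an H2A.Z region, held only 11 CpGs at 44.7%, the lowest of the members, and Tarbp2 held 21 at 59.0%. The median was 7 CpGs over all 32851 windows, 20 for genes with an H2A.Z promoter and 22 for genes with an ANP32E promoter. All 12 member promoter regions nevertheless overlapped a CpG island in the deposited annotation, as 84.2% of all H2A.Z and 89.4% of all ANP32E promoters did.

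Short motifs were counted on both strands of these windows. The GC box GGGCGG, which overlaps the marked CpGs, occurred 5 times each for Ago3 and Ago4 and 3 times for Tarbp2. It occurred 2 times for Dicer1, for Dgcr8 and in each of the Ago1 windows, and 1 time for Xpo5. The Tnrc6a and Drosha windows lacked it. It was in 35.7% of all windows and in 65.7% of the windows of genes with an ANP32E promoter. The CCAAT box occurred 1 time for Dicer1 and in each of the Ago1 windows, 3 times for Drosha, 4 times for Dgcr8 and 3 times for Tarbp2, against 37.4% of all windows. CCGGAA, the core of many ETS-family sites, occurred 2 times for Drosha and 1 time for Ago3, and 14.9% of windows held it. No member window held TATAAA or CACGTG, which occurred in 13.6% and 7.15% of all windows. In the windows of genes with an H2A.Z promoter the shares were 63.2% for GGGCGG, 36.8% for CCAAT, 26.0% for CCGGAA, 6.82% for TATAAA and 9.92% for CACGTG. A match is a string of letters and not a measured site.

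Ago2 encodes the argonaute that can itself cut a matched target. Its ANP32E promoter region (chr15:73183573-73184670) had an average signal of 5.24 in sham and 14.0 in TAC. The peak signal was 8 in sham and 27 in TAC. Both measures were thus well above sham in the TAC library, with log2 ratios of 1.26 for the average (1.41 relative to the median promoter) and 1.64 for the peak. Among 5496 ANP32E promoters the average ratio ranked 16 from the top and the peak ratio 12. The sham value lay at percentile 3.02 of all sham promoter values and the TAC value at percentile 99.8 of all TAC values. Ago2 was chosen for its high ratio, so these percentiles describe the choice and are no separate result.

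Dicer1, the nuclease that cuts hairpins, had an ANP32E promoter region at chr12:104752007-104753111. Its average signal was 6.09 in sham and 11.9 in TAC, a log2 ratio of 0.87 (1.01 relative to the median promoter). Its peak signal was 14 in sham and 24 in TAC, a log2 ratio of 0.74. The gain was smaller than at Ago2 on both measures, ranking 75 by the average and 195 by the peak. The average lay at percentile 6.28 in sham and percentile 97.3 in TAC, which again goes with the choice of the gene by its ratio.

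Tnrc6a, a GW182 protein that links argonaute to deadenylation of the target, had an ANP32E promoter region at chr7:123123248-123124519. Its average signal was nearly alike, 8.37 in sham and 9.16 in TAC (log2 ratio 0.12, or 0.26 relative to the median promoter). Its peak signal was 14 in sham and 26 in TAC, close to the peaks of Dicer1, and gave a log2 ratio of 0.85. By the average Tnrc6a ranked 1424 of 5496 and by the peak 130, so the answer for this gene depends on which deposited value is read.

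**Figure D1:**
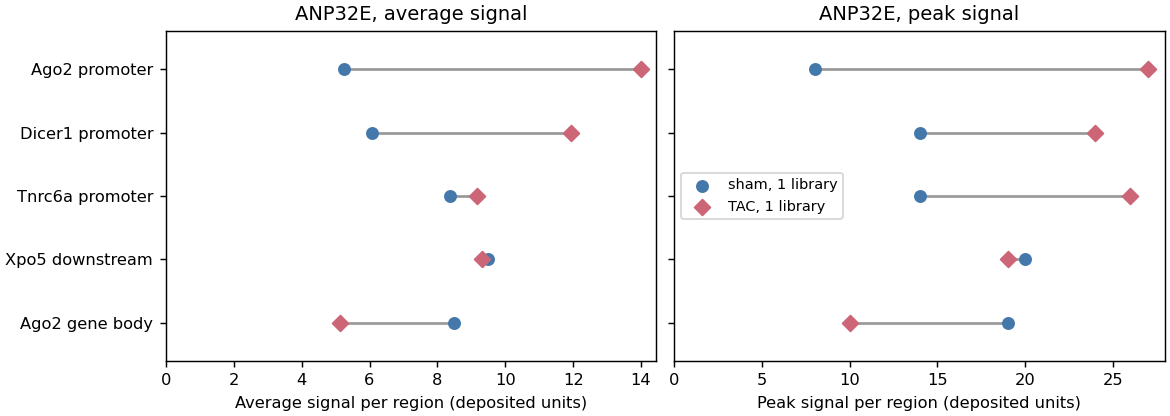
Average signal (left) and peak signal (right) of the 5 ANP32E regions that list a member, in deposited units, with a circle for the sham and a diamond for the TAC library. The TAC value is the higher one at all 3 promoters on both scales, but Ago2 and Dicer1 were chosen for high ratios. At Tnrc6a the gap is small for the average (8.37 and 9.16) and wide for the peak (14 and 26). Over all 5496 ANP32E promoters, 1992 had a higher average in TAC and 1827 a higher peak.

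Of the 3 ANP32E promoters, 2 were higher in TAC and 0 lower; over all promoters 4.31% were higher and 9.24% lower. Nothing can be read from the 2, since that ratio chose them. Intervals at Ago2 and Dicer1 were called in TAC only, as at 17.8% of all ANP32E promoters, whereas Tnrc6a was called in both libraries. Of the 980 promoters called in TAC only, 230 were higher and 0 lower, with a median log2 ratio of 0.36. The borders of such a region come from the TAC interval alone.

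The regions were placed differently around the 3 starts. The Ago2 region was listed as in the gene, its near edge 277 bp inside the start, which it did not cover. The Dicer1 region lay upstream and ended 55 bp short of the start, and the Tnrc6a region was centred on its start. The Tnrc6a start used, at 123123886, is an internal one: the RefSeq gene spans chr7:123031101-123195296 on the plus strand. At 1097 and 1104 bp the Ago2 and Dicer1 regions were nearly as long as each other and short for ANP32E promoters (percentiles 6.59 and 6.73), and the Tnrc6a region measured 1271 bp. Each lay wholly within the H2A.Z region of the same promoter, of which it took up 17.4% for Ago2, 23.1% for Dicer1 and 37.9% for Tnrc6a. Among the members, no region lay close to the distance limit on its outer side: the listed distance farthest inside it was 826 bp, at Ago2, and the nearest outside it was -6848 bp, at Tarbp2.

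**Figure D2:**
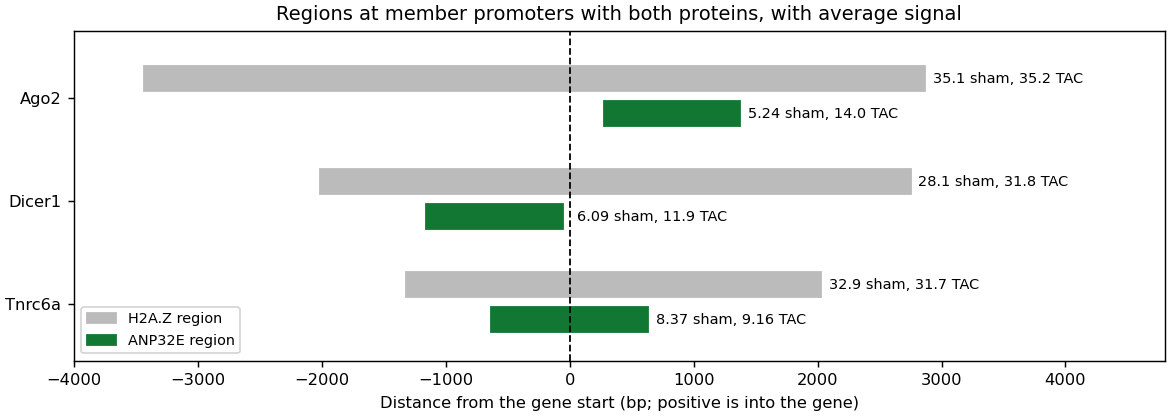
H2A.Z (grey) and ANP32E (green) regions around the starts of Ago2, Dicer1 and Tnrc6a, in bp from the start with positive values into the gene, each with its average signal in the sham and the TAC library. The green bar lies inside the start at Ago2, upstream of it at Dicer1 and across it at Tnrc6a, and each green bar lies within a grey one.

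Away from the promoter, Ago2 went the other way. A second ANP32E region inside the gene, centred 47.7 kb from the start (chr15:73136480-73138059), had an average signal of 8.48 in sham and 5.12 in TAC and a peak signal of 19 and 10. Its log2 ratio was -0.63 (-0.49 relative to the median promoter), it was called in sham only, and it held no CpG island and overlapped no H2A.Z region. That direction was common for its class: of 1673 gene-body regions without a CpG island, 48.2% were lower and 4.24% higher, with a median of -0.56. The fifth region lay downstream of Xpo5, at the promoters of Polr1c and Yipf3, and was alike in both libraries, with average signals of 9.48 and 9.30.

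Within 200 kb of the Ago2 start there were 4 ANP32E regions, and the promoter region was the only one of them with a higher average in TAC. That region was chosen for its high ratio, so the contrast with its neighbours is no separate result. Over all 8444 ANP32E regions the median log2 ratio was -0.26. The region at Chrac1, the next gene, had 10.9 in sham and 9.18 in TAC, although its peak signal was 21 and 27, and a region in Trappc9 had 11.6 and 7.76. Dicer1 had no other ANP32E region within 200 kb. Of the other 2 regions within 200 kb of the Tnrc6a start, both were lower in TAC by average and by peak. The averages were 6.24 and 3.70 at LOC101056011, which lies inside the RefSeq span of Tnrc6a, and 9.61 and 6.96 at Rbbp6.

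Members without an ANP32E promoter had from 0 (Ago1) to 8 (Xpo5) regions of that protein within 200 kb of the start. Distances were not taken for other genes that lack an ANP32E promoter, so those given here have no background. The nearest ANP32E region was 40.9 kb from the start of Xpo5, 47.6 kb from Tarbp2, 54.1 kb from Dgcr8 and 65.4 kb from Drosha. The argonaute genes Ago1, Ago3 and Ago4, which lie in one cluster on chromosome 4, were 205 kb, 166 kb and 143 kb away. Of these regions, the one nearest Dgcr8, at Tango2 and Arvcf, had a higher average in TAC (7.15 in sham and 9.15 in TAC). The regions nearest the other members had lower averages in TAC, with log2 ratios from -1.06 near Ago4, at Psmb2 (11.0 and 4.73), to -0.10 at the region nearest both Ago1 and Ago3.

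H2A.Z at the same genes was nearly alike in both conditions. All 9 member promoters with a region were called in both libraries, as were 13240 of the 13763 H2A.Z promoters. Of the 9, 0 were higher and 0 lower, against 0.436% higher and 0.145% lower over all promoters. Their median log2 ratio was 0.03, the range ran from -0.05 to 0.17, and 7 of 9 ratios were above 0, as were 8269 of 13763 overall. Relative to the median of all promoters only 4 of 9 were above 0, because the ratios of Ago2, Ago4 and Xpo5 changed sign.

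Among the nuclease genes, Dicer1 had the largest H2A.Z ratio of the members. Its promoter region (chr12:104749201-104753970) had an average signal of 28.1 in sham and 31.8 in TAC, a log2 ratio of 0.17 that was under the 1.5-fold limit, and a peak of 72 and 80. Drosha, which shares its region with 6030458C11Rik, had an average of 32.5 in sham and 35.0 in TAC (0.11) and a peak of 119 and 140. Dgcr8, the partner of Drosha, had 28.3 in sham and 27.9 in TAC (-0.02), with a peak of 75 in both.

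The 4 argonaute genes included both the highest and the lowest H2A.Z level of the members. Ago3 had the highest average of all members, 43.9 in sham and 45.0 in TAC, at percentiles 94.7 and 95.2 of all promoters. Ago4 had the lowest, 26.0 and 26.6. Ago1 had 26.9 in sham and 29.0 in TAC (log2 ratio 0.11), and its peak of 86 and 109 was the largest peak ratio of the members, 0.34. Ago2, where ANP32E differed most, had H2A.Z averages of 35.1 in sham and 35.2 in TAC (log2 ratio 0.0051, or -0.03 relative to the median promoter), with a peak of 101 and 119.

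Xpo5, in a region shared with the DNA polymerase gene Polh, had an H2A.Z average of 37.3 in sham and 37.5 in TAC. Tnrc6a had 32.9 in sham and 31.7 in TAC (-0.05), the lowest ratio of the members, though its peak was slightly higher in TAC, at 123 and 127. In sham the averages ran in the order Ago3, Xpo5, Ago2, Tnrc6a, Drosha, Dgcr8, Dicer1, Ago1 and Ago4; with 1 library each, no error can be set beside the gaps between neighbours. In TAC, Drosha and Dicer1 stood above Tnrc6a, and Ago1 above Dgcr8. Peak signals were higher in TAC at 8 of 9 promoters and equal at Dgcr8. Over all H2A.Z promoters they were higher at 10299 of 13763. The median peak log2 ratio was 0.15 for the members and 0.14 over all promoters.

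**Figure D3:**
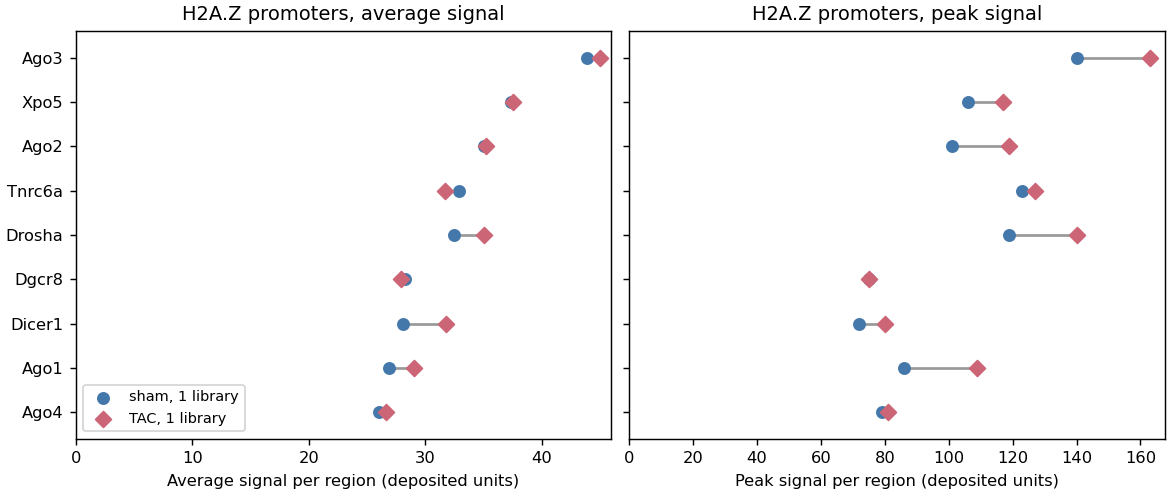
Average signal (left) and peak signal (right) of the 9 H2A.Z promoter regions of members, in deposited units and ordered by the sham average, with a circle for sham and a diamond for TAC. Averages nearly coincide, with the widest gap at Dicer1 (28.1 and 31.8), while peaks are equal at Dgcr8 (75) and higher in TAC at the other promoters. Over all H2A.Z promoters, 10299 of 13763 had a higher peak in TAC.

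Tarbp2 was the member without a promoter region for H2A.Z. The only region that listed it lay -6848 bp from its start, within Map3k12 (chr15:102508882-102513806), with an average of 27.2 in sham and 24.7 in TAC, and an interval was called there in sham only. Other H2A.Z regions that listed members belonged to promoters of neighbours: Chrac1 near Ago2 (43.0 and 45.9), Ranbp1 and Trmt2a near Dgcr8 (38.2 and 41.4), Yipf3 near Xpo5 (25.9 and 26.5) and the Ago3 promoter, also listed for Ago1.

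The Dgcr8 promoter region also listed a microRNA gene, Mir1306, whose hairpin lies inside Dgcr8 (chr16:18284239-18284317, minus strand). Its mature RNAs are shown because they are the microRNAs that the regions of these genes list; capitals mark the seed, bases 2 to 8, and the seeds of the arms are different. The H2A.Z values of Dgcr8 given above are those of the region listed for Mir1306. That region (chr16:18286720-18290139) does not reach the hairpin, so its values are not the signal at the hairpin.
miR-1306-5p: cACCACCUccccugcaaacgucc
miR-1306-3p: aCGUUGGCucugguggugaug

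Genes with the most similar pattern were sought among 5449 genes with both promoters, by the distance over 4 values, the log2(average signal + 1) of each protein in each condition. Nearest to Ago2 was AW046200 (distance 0.34), with ANP32E at 4.69 in sham and 11.1 in TAC and H2A.Z at 34.1 and 36.4. Next were Rfx7, a transcription factor, and 4930509E16Rik (distance 0.35), with ANP32E at 5.63 and 11.1 and H2A.Z at 38.3 and 36.9. All 4 values are the same for both genes, so they are not separate matches. Nearest to Dicer1 was Itpripl2 (0.11), followed by Prex1, an activator of Rac (0.18), and Tead4, a transcription factor of the Hippo pathway (0.18), with ANP32E at 6.39 and 11.1, 6.04 and 11.2, and 6.31 and 10.7.

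A wider list of 69 genes of the pathway, in 7 roles, was set beside the members. ANP32E promoters were present for 35 of them, or 60.3% of the 58 that had an H2A.Z promoter. Over all genes with an H2A.Z promoter the share was 39.6%, and the difference was not tested. Of the 35, 0 were higher and 1 was lower, the median log2 ratio was -0.09 (0.052 when set against the median of all promoters), and 19 lay above the median of all promoters. Over all promoters 4.31% were higher and 9.24% lower by the average signal. With peak values 9 of the 35 were lower. The share by peak was not counted over all promoters, so the 9 have no background beside them and nothing can be read from that count. The median peak log2 ratio was -0.08 for the 35 and -0.16 over all promoters. By the average relative to the median promoter, 1 of the 35 was higher. Of the 35, 2 were called in TAC only, against 17.8% of all promoters. Ago2 and Dicer1 were chosen for high ratios, so the absence of such ratios among the 35 says nothing about the list, and a region of Tut4 just outside the promoter limit, at 1144 bp, had a log2 ratio of 0.93.

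In silencing, the role with the most genes, 16 of 26 had an ANP32E promoter, with a median log2 ratio of -0.28. Mov10, an RNA helicase that binds argonaute, was the one gene past the limit, with 7.28 in sham and 2.39 in TAC (log2 ratio -1.29, and -1.15 against the median promoter), and the only one of the 35 without a CpG island. Its region was called in sham only, with a peak of 10 in sham and 4 in TAC. Ddx6, a helicase of decapping and translational repression, was highest, with 6.30 and 9.72 (log2 ratio 0.55, and 0.70 against the median promoter), and was called in TAC only. Its ratio was below the 1.5-fold limit as deposited and above it relative to the median promoter. Tnrc6b, a paralogue of Tnrc6a, had 11.8 in sham and 7.79 in TAC (-0.54), and its peak went from 31 to 19. The paralogues therefore had opposite signs on both deposited values; Tnrc6c had no ANP32E promoter.

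**Figure D4:**
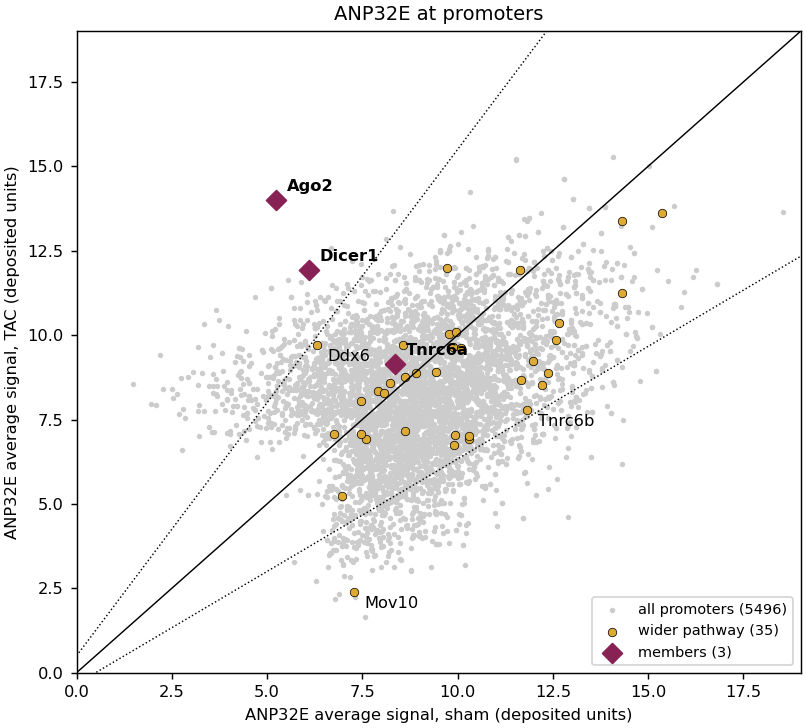
ANP32E average signal in sham (horizontal) and TAC (vertical), in deposited units, for all 5496 promoters (grey), 35 genes of the wider pathway (yellow) and 3 members (purple diamonds); the solid line marks equality and the dotted lines 1.5-fold with a pseudocount of 1. Ago2 and Dicer1 lie above the upper dotted line and Mov10 below the lower one, while the other yellow points lie between the dotted lines.

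Among genes that act with Drosha, 6 of 10 had an ANP32E promoter, with a median of 0.03. Safb, a nuclear matrix-binding protein, was highest (9.71 in sham and 12.0 in TAC, log2 ratio 0.28), and Khsrp, which binds the terminal loop of some hairpins, was lowest (12.7 and 10.4, -0.27). Prkra, the second partner of Dicer1 besides Tarbp2, was at 9.44 and 8.90 (-0.08, or 0.07 relative to the median promoter). Chaperone and import genes for argonaute loading had ratios below 0 at all 5 promoters, as had 3491 of all 5496 ANP32E promoters. Their median was -0.32, from -0.52 at Hsp90aa1 to -0.09 at Hsp90ab1. Relative to the median promoter, Hsp90ab1 and Ipo8 turned positive, at 0.05 and 0.03. Turnover genes had 7 of 18 ANP32E promoters and a median of 0.05, from -0.44 at Zswim8, a ubiquitin ligase subunit of target-directed microRNA decay, to 0.16 at Xrn2, a nuclear exonuclease. The export genes Ran and Rangap1 and the germline argonautes Piwil1, Piwil2 and Piwil4 had no ANP32E promoter.

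H2A.Z promoters were present for 58 of the 69 genes, all over CpG islands and called in both libraries. Among all H2A.Z promoters, 84.2% overlapped a CpG island and 13240 of 13763 were called in both libraries. Of the 58, 0 were higher and 0 lower, against 0.436% and 0.145% over all promoters. Their median log2 ratio was 0.017 (-0.018 when set against the median of all promoters). The range ran from -0.17 to 0.25, and 26 lay above the median of all promoters. Xrn1, the cytoplasmic exonuclease that degrades decapped messages, was highest with 27.8 in sham and 33.1 in TAC, and Pan2, a deadenylase, was lowest with 42.3 and 37.5. Genes that act with Drosha had ratios below 0 at all 6 promoters (median -0.10), against 5486 of all 13763 H2A.Z promoters. The lowest was Safb (-0.17) and the highest Erh (-0.04), but peak values were higher in TAC at Khsrp and Safb. In turnover, 12 of 15 ratios were above 0, as were 8269 of all 13763 promoters, and 9 of 15 lay above the median of all promoters; they ran from -0.05 at Parn to 0.23 at Pnpt1. Loading ran from -0.10 at Hspa8 to 0.14 at Ipo8, dicing from -0.03 at Prkra to 0.10 at Adar, and export from 0.11 at Rangap1 to 0.18 at Ran. The Piwi genes had no H2A.Z promoter.

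**Figure D5:**
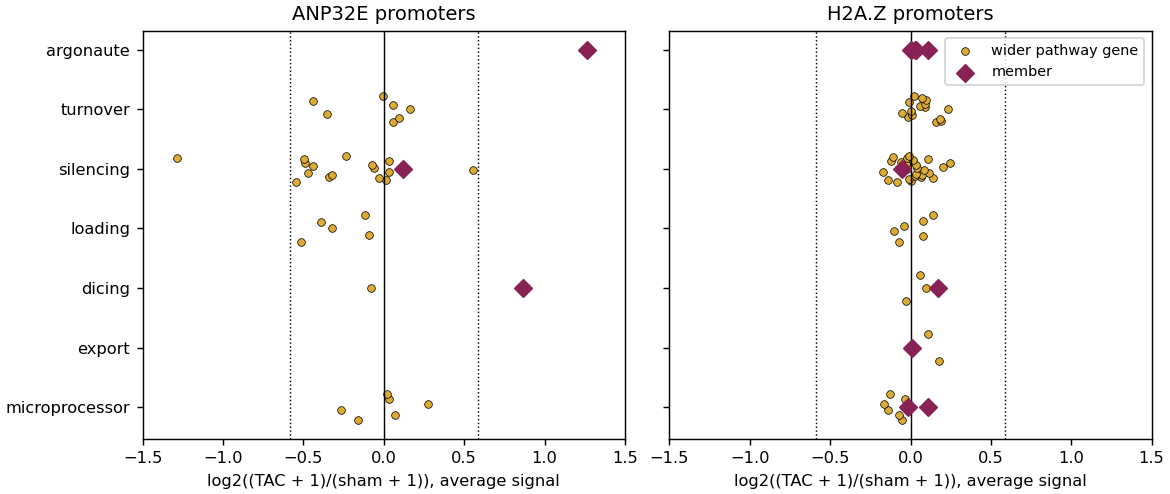
Log2((TAC + 1)/(sham + 1)) of the average signal at promoters of members (purple diamonds) and of the wider pathway (yellow points), by role, for ANP32E (left) and H2A.Z (right); dotted lines mark 1.5-fold, and the vertical spread within a role only separates points. ANP32E ratios run from -1.29 at Mov10 to 1.26 at Ago2, and H2A.Z ratios stay between -0.17 and 0.25.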

How the data were processed

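Chromatin immunoprecipitation sequencing of H2A.Z and ANP32E was analysed from 1 deposited table per antibody, whose regions join the intervals of the sham and the TAC library, per the file headers. BWA, SICER and mm10 are named per the submitters' processing notes, without versions. The authors deposited an average and a peak signal per region and library; how depth and the input entered is not stated in the sources used here, and without the depth no counting interval can be had.

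Members were found by splitting each gene list. Older symbols of the fixed lists were accepted (Zcchc11 for Tut4, for example). Of the 10 members, 10 matched RefSeq genes and 9 matched RefSeq promoter windows of GRCm38.p6. For 9 of 12 member promoter regions the start implied by the listed distance lay within 100 bp of a RefSeq start; the others were both Ago2 regions, which have no window, and Ago1. Where several regions qualified as a promoter, the nearest was used.

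The genes named were all 10 members, the highest and lowest of each role of the wider list, those past 1.5-fold, genes sharing a promoter, and the 3 nearest in pattern to Ago2 and Dicer1. Tnrc6b, Tnrc6c and neighbours of members were chosen after their values were seen, as were the motifs. The members and lists were chosen with earlier results of these data known. Alternatives were the peak value, pseudocounts of 0.1 and 5, centring, a 5000 bp limit, regions called in both libraries and a 2-fold limit. Promoter choice and call counts were tested on simulated data. Python 3.11.15, numpy 2.4.6, pandas 2.3.3 and matplotlib 3.10.9 were used.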

Additional observations from a re-analysis of the deposited data

How the results depend on the processing

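Ago2 and Dicer1 stayed at least 1.5-fold higher for ANP32E with the peak value, pseudocounts of 0.1 and 5, centring on all promoters and a 5000 bp limit. These settings rework the values by which both genes were chosen, so they give no separate support. With a 2-fold limit the number of higher members was 1 (Ago2), and among regions called in both libraries it was 0, since only Tnrc6a is left there. The ANP32E median of the members, 0.87, was 0.61 with a pseudocount of 5, 1.01 when centred and 0.12 among regions called in both libraries. The member other than Ago2 and Dicer1, Tnrc6a, had 0.12, which became 0.85 with the peak value, past the 1.5-fold limit, and 0.26 when centred.

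For ANP32E in the wider pathway, the number of higher promoters was 1 with a pseudocount of 0.1, 1 when centred (Ddx6 in both) and 1 within 5000 bp (Tut4). The number of lower promoters was 9 with the peak value, 2 with a pseudocount of 0.1 and 0 among regions called in both libraries. The shares over all promoters were not counted under these settings, so these counts have no background beside them. The median became 0.052 when centred. The H2A.Z median of the members was 0.15 with the peak value and -0.0046 when centred, and that of the wider pathway 0.12 and -0.018. For both lists, the number of H2A.Z promoters past the limit did not change under any of these alternatives. The cause was not tested. No replicates or read depths were available, so the error of any single value is unknown.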

Other observations

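Just outside the promoter limit, Tut4, a uridylyltransferase that tails let-7 precursors and is listed in the tables as Zcchc11, had an ANP32E region centred 1144 bp inside its start. Its average signal was 3.55 in sham and 7.70 in TAC, a log2 ratio of 0.93, which is above that of Dicer1. It was found after the values were seen, by widening the promoter limit to 5000 bp. Parn and Cnot6l were the other genes of the wider list gained by that limit, with log2 ratios of 0.0045 (9.91 in sham and 9.95 in TAC) and -0.55 (8.67 and 5.61).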
